A study of Mus musculus with 16 samples.

Results

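The 41 genes described here encode the enzymes of the tricarboxylic acid (TCA) cycle, the enzymes that make or use α-ketoglutarate (α-KG) around it, and 3 carriers of its metabolites. They were listed by gene symbol, and all 41 were found among the 18929 genes of the deposited table. Messenger RNA was measured in 16 B16F10 melanomas, 4 in each of 4 groups: vehicle, α-KG, anti-PD1, and α-KG + anti-PD1, the last also called the combination. B16F10 is a pigmented mouse melanoma cell line. The cells were implanted in female C57BL/6 mice of 7 to 8 weeks, an inbred strain with an intact immune system. Treatment by intraperitoneal injection began at a tumor volume of about 50 mm3 and ran for 9 to 11 days. Vehicle mice received corn oil with an IgG isotype control, α-KG was given at 100 mg/kg, anti-PD1 mice received a monoclonal antibody against the checkpoint receptor PD1, and the combination group received both agents. Each group held 6 mice, and 4 separate tumors of each group were sequenced. These details of treatment come from the published methods. Whole tumors were used, all from the same tumor line, so the values mix tumor cells with infiltrating immune and stromal cells. In such bulk samples, fewer cells of a type and less RNA per cell cannot be told apart.

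The TCA cycle joins acetyl-CoA to oxaloacetate and oxidizes the resulting citrate stepwise, which yields electrons for respiration. α-KG is made in the cycle from isocitrate by isocitrate dehydrogenases and outside it from glutamate by glutamate dehydrogenase and by transaminases, and the 2-oxoglutarate dehydrogenase complex consumes it. It is also the cosubstrate of dioxygenases that demethylate DNA and histones, and these are inhibited by succinate, fumarate and 2-hydroxyglutarate. Activated myeloid cells divert the intermediate cis-aconitate to itaconate through the enzyme encoded by Acod1. The comparisons address how messenger RNA of this machinery stood in tumors given α-KG, anti-PD1 or both.

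Levels are FPKM, fragment counts divided by transcript length and by library size, so they can be compared between genes. Differences are given as the difference of group means of log2(FPKM + 1), written as log2 difference, with the standard error (SE) and p adjusted over the 12850 genes tested, and a gene is called higher or lower at an adjusted p under 0.05. The sum of FPKM over all genes was 514180 to 527812 in the combination tumors and 549740 to 654772 in the other 12, and hemoglobin genes took 2.09% to 2.23% of it in the combination tumors and 4.23% to 22.2% elsewhere. All tests were therefore repeated under 4 other scalings of the tumors. For the combination against vehicle, the median log2 difference over all genes was 0.15 as deposited, -0.11 after quantile normalization, -0.16 with each tumor centered on its median, 0.34 with each tumor set to the same sum and 0.18 with the same sum without hemoglobin genes. Melanocyte markers, which define the labelled tumor, summed to 8103 to 11020 FPKM in all 16 tumors. Skeletal muscle markers summed to 760.9 FPKM in vehicle tumor 4, to 59.53 to 79.54 in the other vehicle tumors, to 2.7 to 4.49 with a single agent and to 4.66 to 77.04 with the combination.

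Since the study centers on interferon and STAT signaling, the promoter windows of the genes (250 bases before to 50 after the start site, RefSeq, GRCm38.p6) were searched on both strands for TTCNNNGAA, a form of the gamma-activated site, and GAAANNGAA, the core of the interferon-stimulated response element. RefSeq held windows for 35 of the 41 genes, 45 in all. TTCNNNGAA was found in 0 of these 45 windows and in 8.3% of 32851 windows of all genes. GAAANNGAA was found in 4 of the 45, those of Glul, Oat, Suclg1 and Suclg2, and in a similar share, 8.56%, of all windows. The 250 bases before the start site are printed for 4 genes on which the results turn, Acod1 and D2hgdh without a match and Oat and Suclg1 with one, 5′ to 3′ on the gene's strand, with the match in capitals. A match is a run of letters and not a shown binding site. Glul, which also holds a match, was called in no comparison of the values as deposited. The D2hgdh start site lies inside the gene's annotated interval.
Acod1, chr14:103046762-103047011, plus strand: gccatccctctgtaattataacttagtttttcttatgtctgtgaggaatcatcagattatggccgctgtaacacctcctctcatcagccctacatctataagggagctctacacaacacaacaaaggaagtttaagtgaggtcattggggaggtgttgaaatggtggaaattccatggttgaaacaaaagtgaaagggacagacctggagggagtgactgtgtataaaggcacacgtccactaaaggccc
D2hgdh, chr1:93824990-93825239, plus strand: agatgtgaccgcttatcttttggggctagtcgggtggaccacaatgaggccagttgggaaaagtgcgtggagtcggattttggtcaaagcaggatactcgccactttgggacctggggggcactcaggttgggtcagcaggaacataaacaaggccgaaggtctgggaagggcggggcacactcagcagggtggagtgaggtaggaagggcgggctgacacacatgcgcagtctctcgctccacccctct
Oat, chr7:132576399-132576648, minus strand: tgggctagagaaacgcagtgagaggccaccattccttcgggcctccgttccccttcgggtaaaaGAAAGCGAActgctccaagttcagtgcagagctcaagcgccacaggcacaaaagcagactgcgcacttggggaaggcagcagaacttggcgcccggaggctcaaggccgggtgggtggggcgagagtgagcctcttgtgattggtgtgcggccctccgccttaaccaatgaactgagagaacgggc
Suclg1, chr6:73248255-73248504, plus strand: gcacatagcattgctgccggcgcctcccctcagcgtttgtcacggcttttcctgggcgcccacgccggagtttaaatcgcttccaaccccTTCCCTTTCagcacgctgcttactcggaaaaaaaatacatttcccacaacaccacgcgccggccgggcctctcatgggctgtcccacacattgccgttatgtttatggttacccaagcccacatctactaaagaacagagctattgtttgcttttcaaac

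In vehicle tumors the levels of the 41 genes spanned from 0.3 FPKM for Slc13a3 to 386.4 FPKM for Mdh2, the mitochondrial malate dehydrogenase. Next in mean level came Sdhb, the iron-sulfur subunit of succinate dehydrogenase, at 333.6 FPKM, and Got2, the mitochondrial aspartate transaminase, at 228.4 FPKM. The ranges of Mdh2 and Sdhb over the 4 vehicle tumors overlapped, while those of Sdhb and Got2 did not. Idh2, the mitochondrial isocitrate dehydrogenase that uses NADP, had a mean of 158 FPKM and its cytosolic counterpart Idh1 one of 37.31 FPKM. Below 2 FPKM were Gls2, one of the glutaminases, at 1.403 FPKM, Acod1 and Slc13a3. Of the 41 genes, 39 were at 0.5 FPKM or more in all 16 tumors. The other 2, Acod1 and Slc13a3, passed the filter on low values (0.5 FPKM in at least 4 tumors) mainly through the treated groups, Acod1 in 14 tumors and Slc13a3 in 11.

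Together the 41 genes made up 0.429% to 0.571% of the FPKM sum. For 36 of them the highest group mean was at most 1.42 times the lowest, and the share of all genes under this ratio was not computed. These 36 include genes called in the comparisons below, such as Got2 (1.42) and Suclg1 (1.37). The ratio was 1.65 for Gls2, 1.72 for D2hgdh, 2.16 for Slc1a5, 23.4 for Slc13a3 and 154 for Acod1. Tumors of a group also differed among themselves. Vehicle tumor 1 was the lowest of its group in 28 of the 41 genes, against 26.2% of all genes tested, and α-KG + anti-PD1 tumor 2 was the lowest of its group in 27, against 25.2% of all genes tested. The map of differences shows both as blue columns.

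**Figure D1:**
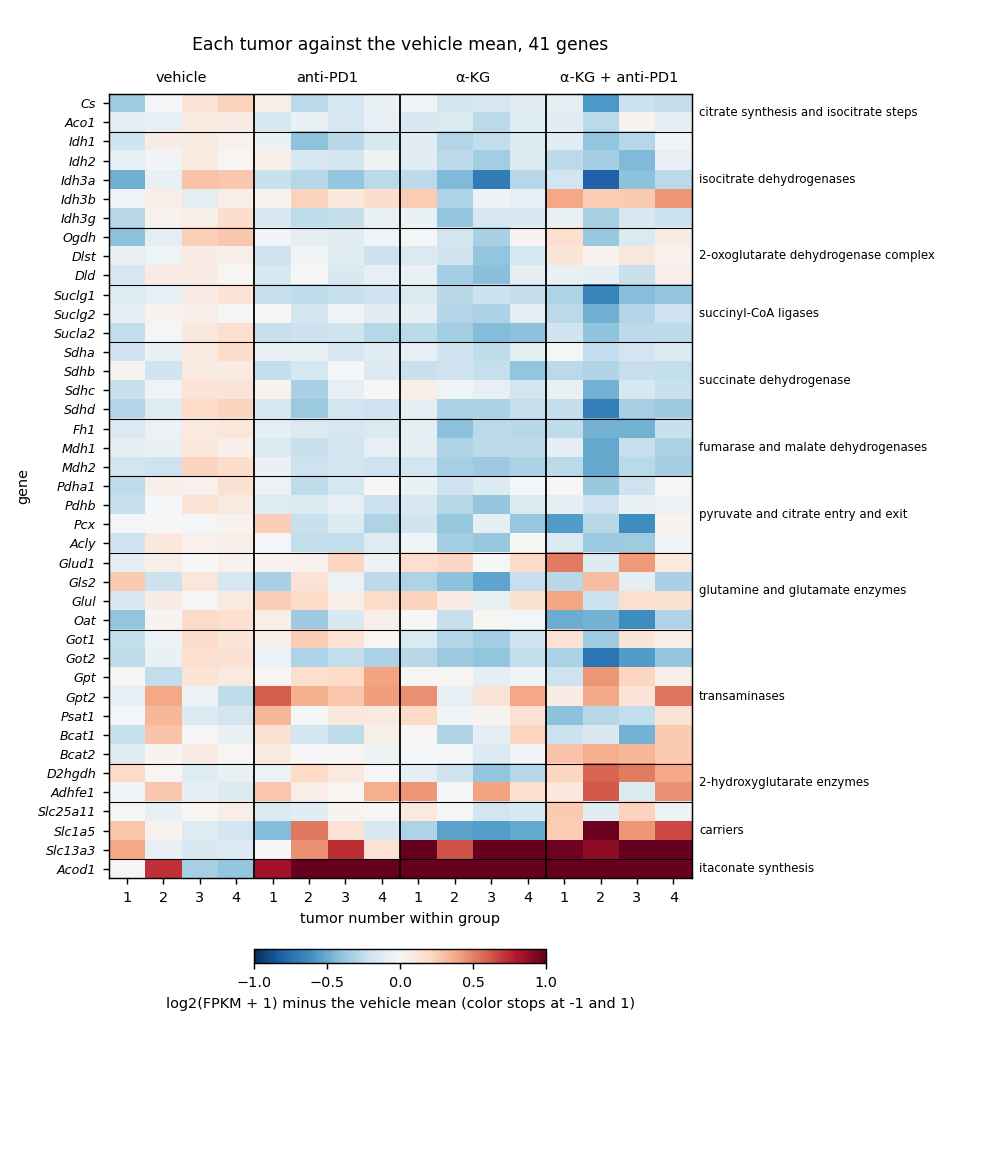
Difference of each tumor from the vehicle mean in log2(FPKM + 1) for the 41 genes (rows, grouped by role) in the 16 tumors (columns, by group), with colors that stop at -1 and 1. Acod1 is red in nearly all treated tumors, Slc13a3 in the α-KG and combination tumors, Slc1a5 is blue with α-KG alone and red with the combination, and the succinyl-CoA ligases, fumarase and malate dehydrogenases are mostly blue in the combination tumors.

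Acod1, which makes itaconate (gene ID 16365, chr14:103047012-103056573, GRCm38.p6), had the largest differences of the 41 genes. It stood at 0.64, 1.74, 0.31 and 0.26 FPKM in vehicle tumors 1 to 4. With anti-PD1 it was at 1.96, 9.28, 3.77 and 3.17 FPKM. With α-KG it was at 100.15, 54.19, 122.15 and 176.69 FPKM, and with the combination at 12.41, 5.19, 13.48 and 22.63 FPKM. All 4 α-KG tumors lay above every other tumor, and each combination tumor lay above every vehicle tumor. Against vehicle the log2 difference was 5.99 (SE 0.44, adjusted p = 2.015e-07) with α-KG and 2.98 (SE 0.44, adjusted p = 0.000422) with the combination, and both calls held under all 5 scalings and on leaving out each tumor in turn. With anti-PD1 alone it was 1.59 (SE 0.44, adjusted p = 0.0913), which did not pass, although the ranges did not overlap. The combination lay below α-KG alone by a log2 difference of -3.02 (SE 0.44, adjusted p = 0.000345).

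Slc13a3 encodes a sodium-coupled dicarboxylate carrier of the plasma membrane that takes up succinate, α-KG and related acids (gene ID 114644, chr2:165405295-165473197, GRCm38.p6). Vehicle tumors were at 0.68, 0.21, 0.15 and 0.16 FPKM and anti-PD1 tumors at 0.28, 0.76, 1.14 and 0.42 FPKM. α-KG tumors were at 13.01, 0.99, 5.73 and 8.36 FPKM and combination tumors at 1.52, 1.38, 1.95 and 3.1 FPKM. Both groups given α-KG lay above all vehicle tumors, and the spread among α-KG tumors was wide because tumor 2 was near 1 FPKM. The log2 difference from vehicle was 2.33 (SE 0.42, adjusted p = 0.00133) with α-KG, which held under all 5 scalings and without any 1 tumor. With the combination it was 1.19 (SE 0.42, adjusted p = 0.0316), a call that held under 3 of the 5 scalings and was lost without any of 5 tumors (vehicle 2, 3 or 4, or combination 3 or 4).

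Neutrophil markers, like these 2 genes, had their highest group mean with α-KG alone. The sum of 8 neutrophil markers was 24.44 to 42.55 FPKM in vehicle tumors. It was 1084 to 2877 with α-KG, 25.67 to 106.4 with anti-PD1 and 34.4 to 112.8 with both, and all 8 were called higher with α-KG alone. Ly6g, a defining marker of mouse neutrophils, was at 0 in all 4 vehicle tumors. The sum of 8 macrophage markers was 133.6 to 615.4 FPKM in vehicle tumors, 771 to 1151 with α-KG, 636.8 to 1104 with anti-PD1 and 925.2 to 2418 with both. The macrophage sum was 2232 and 2418 in combination tumors 1 and 3, above every other tumor. In combination tumors 2 and 4 it was 1060 and 925.2, within the range of the α-KG tumors. Within the α-KG group, tumor 4 had the highest Acod1, the highest neutrophil sum and the lowest macrophage sum (771), tumor 2 had the lowest Acod1, Slc13a3 and neutrophil sum, and tumor 1 had the highest Slc13a3 with a neutrophil sum of 1573. The part of these cells in the Acod1 and Slc13a3 values was not tested.

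**Figure D2:**
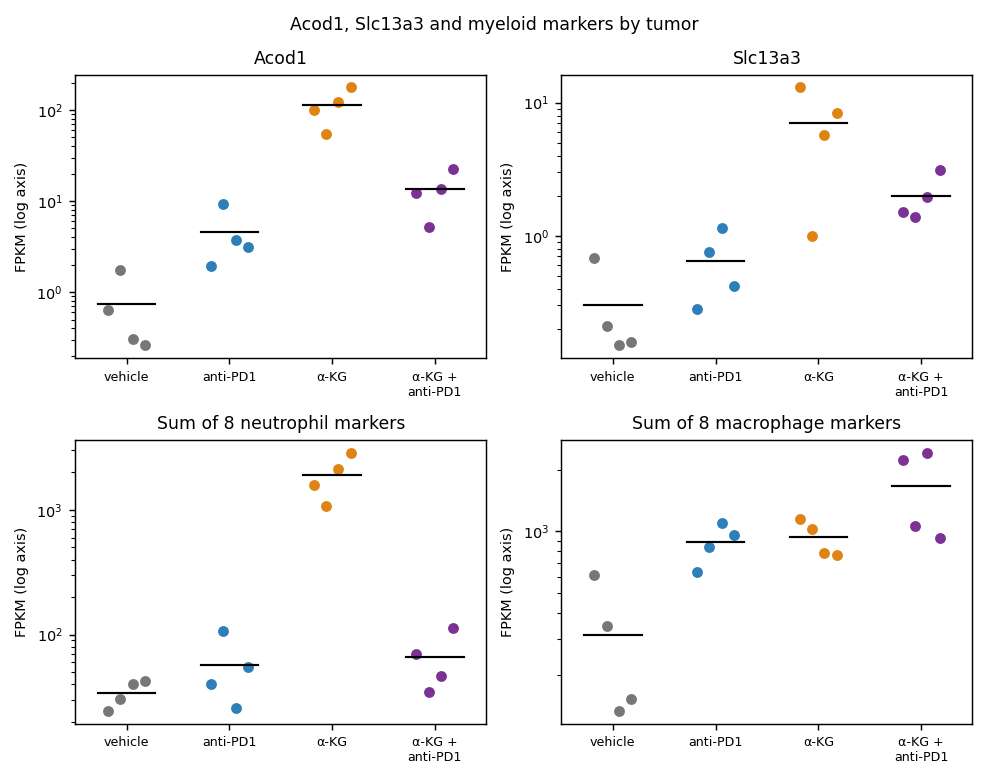
Levels of Acod1 and Slc13a3 and sums of 8 neutrophil and 8 macrophage markers, in FPKM on log axes, with 1 point per tumor and a line at the group mean. Acod1 and the neutrophil sum are highest in the α-KG tumors, and the macrophage sum is lowest in the vehicle tumors. For Slc13a3 the group mean is highest with α-KG, while α-KG tumor 2 (0.99 FPKM) lies below all combination tumors.

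With α-KG alone against vehicle, 5 members were called lower besides these 2 genes called higher, 4 of them enzymes of the cycle and 1 a transaminase. In all, 2 of 41 were called higher, against 8.4% of all genes tested, and 5 lower, against 7.53% of all genes. The median log2 difference of the 41 was -0.20, against -0.04 over all genes, and 34 of the 41 lay below 0. The split of higher to lower calls was 2 to 9 after quantile normalization, 2 to 6 with tumors centered on their medians, 2 to 1 with the same sum and 2 to 11 with the same sum without hemoglobin genes. Under all 5 scalings 3 members kept their call, Acod1, Slc13a3 and Sucla2, against 9.27% of all genes tested. Leaving out vehicle tumor 1 gave 16 calls in place of 7 (2621 of the 12850 genes in place of 2048), and leaving out vehicle tumor 3 or 4 gave 3. In this comparison all 8 skeletal muscle markers were also called lower, from 59.53 to 760.9 FPKM in sum in vehicle to 3.55 to 4.28 FPKM in α-KG tumors. Their part in the enzyme values was not tested.

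Sucla2 encodes the subunit of succinyl-CoA ligase that makes ATP, in the step from succinyl-CoA to succinate (gene ID 20916, chr14:73552786-73596144). Vehicle tumors were at 22.26, 26.1, 28.65 and 29.78 FPKM and α-KG tumors at 21.84, 20.59, 19.41 and 19.72 FPKM, without overlap. Its log2 difference was -0.37 (SE 0.08, adjusted p = 0.00664). The other called members were Dlst, the succinyltransferase of the 2-oxoglutarate dehydrogenase complex (-0.23, adjusted p = 0.0307), Sdhb (-0.26, adjusted p = 0.0263), fumarase Fh1 (-0.26, adjusted p = 0.0448) and Got2 (-0.32, adjusted p = 0.0485). The calls of Dlst and Sdhb held under 4 of the 5 scalings, that of Got2 under 3 and that of Fh1 under 2. The Fh1 and Got2 calls were each lost without any of many single tumors, 10 for Fh1 and 12 for Got2, the Dlst call without vehicle 3 or 4 or α-KG 2 or 3, and the Sdhb call without vehicle 3 or 4 or α-KG 4. None of the isocitrate dehydrogenases, pyruvate enzymes, glutamine and glutamate enzymes or 2-hydroxyglutarate enzymes was called. Of these, Idh3a, the catalytic subunit of the NAD-dependent isocitrate dehydrogenase, had a log2 difference of -0.42 (SE 0.16, adjusted p = 0.0908), with 60.65, 80.43, 103.59 and 102.62 FPKM in vehicle and 70.71, 62.24, 51.93 and 69.65 FPKM in α-KG tumors.

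Anti-PD1 alone against vehicle gave 0 calls among the 41 genes by limma, where 0.467% of all genes tested were called higher and 0.28% lower, and 0.226% were called under all 5 scalings. At an unadjusted p under 0.05 there were 7 members, against 16.6% of all genes. The 7 were Acod1, Gpt2, Suclg1, Sucla2, Idh1, Dlst and Got2. Gpt2, the mitochondrial alanine transaminase, had a log2 difference of 0.41 (SE 0.15, adjusted p = 0.197), with means of 5.83 ± 1.37 FPKM in vehicle and 7.99 ± 0.91 FPKM in anti-PD1 tumors (SD, n = 4). Suclg1 did not overlap between the groups, at 78.4 to 94.86 FPKM in vehicle and 71.91 to 74.54 FPKM in anti-PD1 tumors (log2 difference -0.23, 95% interval -0.39 to -0.06, adjusted p = 0.156).

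The combination against vehicle gave the most calls among the 41 genes. Of the lower ones, 10 encode isocitrate dehydrogenases, succinyl-CoA ligases, succinate dehydrogenase, fumarase and malate dehydrogenases. The higher ones include 2 plasma membrane carriers and single enzymes of 4 other roles. Called lower were 12, against 10.5% of all genes tested, and called higher 6, against 34.9% of all genes. The median log2 difference was -0.15 for the 41 and 0.15 over all genes, and 32 of the 41 lay below the median of all genes. The split of higher to lower calls was 4 to 16 after quantile normalization, 1 to 28 with tumors centered on their medians, 12 to 2 with the same sum and 6 to 11 with the same sum without hemoglobin genes. The direction of the balance thus turned with the scaling to the same sum. Under all 5 scalings 3 members were called, Suclg1 and Got2 lower and Acod1 higher, against 16.4% of all genes tested in either direction. The 12 genes called lower had a log2 difference below 0 under each of the 5 scalings. Leaving out vehicle tumor 1 gave 19 called lower in place of 12, where the genes called lower overall went from 1348 to 1741. Immune markers moved in the same comparison. The sum of 7 T cell markers was 0.69 to 8.26 FPKM in vehicle and 20.84 to 186.3 FPKM in combination tumors, with 7 of 7 called higher. That of 8 leukocyte markers was 344 to 478.7 FPKM and 566.6 to 1352 FPKM, with 7 of 8 called higher. Arhgdib alone gave most of the vehicle leukocyte sum, at 303.57 to 330.84 FPKM, and was at 284.49 to 414.1 FPKM in combination tumors. The part of these immune markers in the enzyme values was not tested.

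By role, all 3 subunits of the succinyl-CoA ligases were called lower, as were fumarase and both malate dehydrogenases, 2 of the 4 subunits of succinate dehydrogenase (Sdhb and Sdhd), Idh2 and Idh3a among the 5 isocitrate dehydrogenase genes, Got2 among the 7 transaminases and Oat among the 4 glutamine and glutamate enzymes. The catalytic subunit of succinate dehydrogenase, Sdha, did not pass. Neither gene of the citrate and isocitrate steps (Cs, Aco1), none of the 3 members of the 2-oxoglutarate dehydrogenase complex and none of the 4 enzymes of pyruvate and citrate entry and exit (Pdha1, Pdhb, Pcx, Acly) was called. Cs, citrate synthase, was at 103.28, 131.45, 146.92 and 154.37 FPKM in vehicle and 124.25, 88.68, 114.16 and 112.39 FPKM in combination tumors (log2 difference -0.28, adjusted p = 0.0723). Pcx, pyruvate carboxylase, was at 5.47, 5.57, 5.52 and 5.73 FPKM in vehicle and 3.45, 4.42, 3.28 and 5.73 FPKM in combination tumors (log2 difference -0.36, adjusted p = 0.0546). Combination tumors thus overlapped vehicle tumors for Cs and reached the highest vehicle value for Pcx.

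Suclg1 encodes the subunit common to both succinyl-CoA ligases (gene ID 56451, chr6:73248505-73276907), and its printed promoter holds a GAAANNGAA match 160 bases before the start. It was at 78.4, 81.26, 90.6 and 94.86 FPKM in vehicle and 69.41, 53.86, 63.62 and 65.55 FPKM in combination tumors. The single-agent tumors lay between, at 71.91 to 74.54 FPKM with anti-PD1 and 70.84 to 77.53 FPKM with α-KG. All 4 combination tumors lay below the other 12. The log2 difference from vehicle was -0.45 (SE 0.08, adjusted p = 0.000641), and its partners Suclg2 and Sucla2 had -0.31 (adjusted p = 0.00433) and -0.28 (adjusted p = 0.0121).

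Got2, which interconverts glutamate and aspartate with oxaloacetate and α-KG in the mitochondrion (gene ID 14719, chr8:95864133-95888401), was at 190.35, 216.17, 255.63 and 251.63 FPKM in vehicle and 182.14, 136.04, 153.96 and 173.43 FPKM in combination tumors, without overlap. Its log2 difference was -0.50 (SE 0.11, adjusted p = 0.00196), and neither the Suclg1 nor the Got2 call was lost without any 1 tumor. Its cytosolic counterpart Got1 had means of 118.2 FPKM in both groups. Further down the cycle Fh1 was at 50.45, 53.44, 59.37 and 60.6 FPKM in vehicle and 46.74, 39.92, 39.87 and 47.67 FPKM in combination tumors (log2 difference -0.36, SE 0.08, adjusted p = 0.00357). Sdhd, a membrane anchor of succinate dehydrogenase, was at 91.77, 103.33, 129.68 and 132.18 FPKM in vehicle and 95.74, 69.63, 89.38 and 87.78 FPKM in combination tumors (log2 difference -0.40, SE 0.12, adjusted p = 0.0113). Fh1 did not overlap between the groups and Sdhd did, through combination tumor 1. Of the other calls, that of Idh3a (log2 difference -0.42, adjusted p = 0.0459) was lost without any of 12 single tumors and that of Idh2 without combination tumor 3, and those of the malate dehydrogenases held without any 1 tumor. In this comparison all 8 skeletal muscle markers were also called lower. Their part in the enzyme values was not tested. Leaving out vehicle tumor 4 cannot test it, because muscle markers still summed to 59.53 to 79.54 FPKM in the other vehicle tumors. In combination tumors 1 to 4 they summed to 77.04, 46.96, 5.41 and 4.66 FPKM. The refit without vehicle tumor 4 gave 14 calls in place of 18 and removed those of Sucla2, Idh3a, Slc1a5 and Slc13a3.

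**Figure D3:**
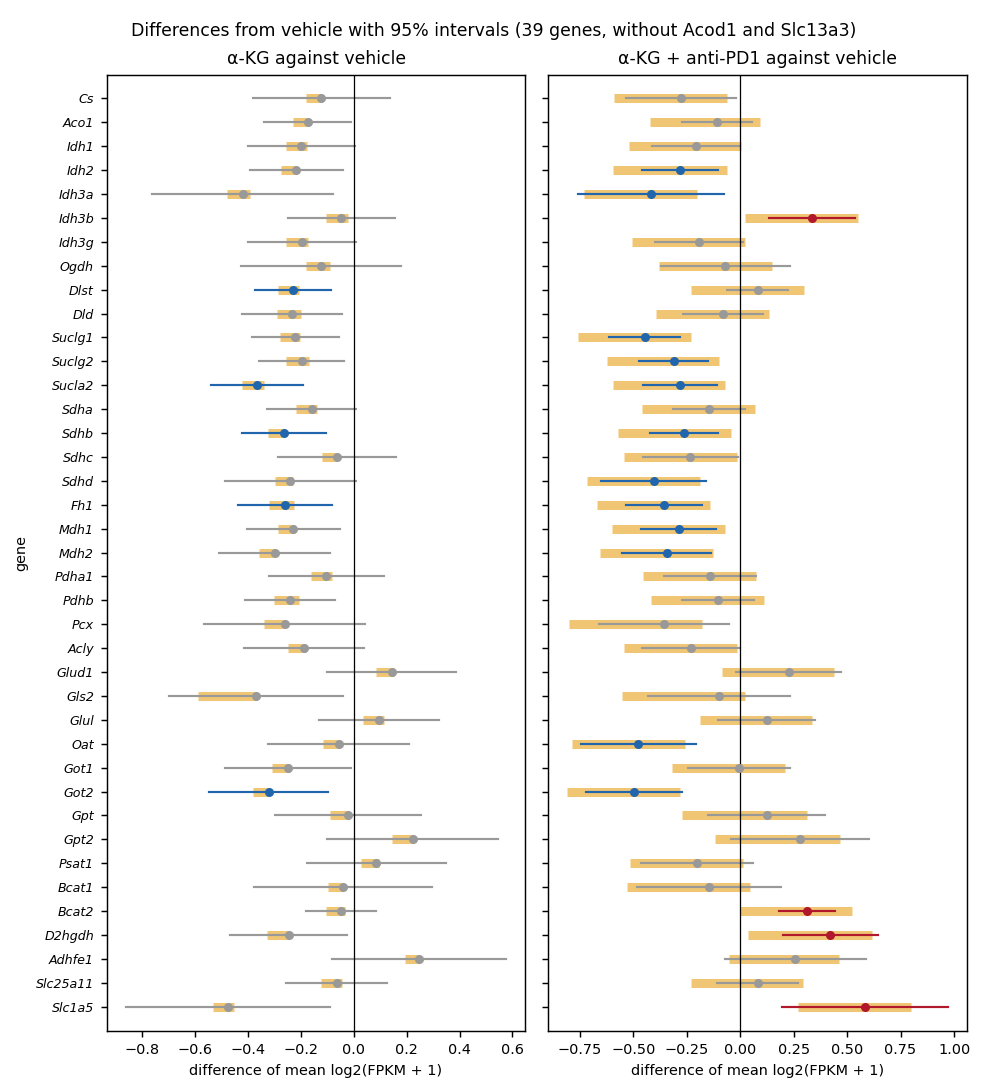
Difference from vehicle in mean log2(FPKM + 1) with 95% intervals (lines) for α-KG (left) and α-KG + anti-PD1 (right) in 39 genes, blue for called lower, red for called higher and gray for not called. Tan bars span the 5 scalings. With the combination the genes from Suclg1 to Mdh2 lie mostly left of 0, while Idh3b, Bcat2, D2hgdh and Slc1a5 lie right of it, and the tan bars are wider than with α-KG.

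The 6 members called higher with the combination were Acod1, Slc13a3, Slc1a5, D2hgdh, Bcat2 and Idh3b. Slc1a5 encodes ASCT2, the main plasma membrane carrier of glutamine into many tumor cells (gene ID 20514, chr7:16781334-16798274). It was at 42.94, 36.05, 32.12 and 30.79 FPKM in vehicle, 25.74, 51.09, 39.05 and 31.36 FPKM in anti-PD1, 28.26, 24.02, 23.74 and 24.35 FPKM in α-KG and 42.25, 70.27, 48.06 and 56.09 FPKM in combination tumors. The α-KG tumors were the lowest and the combination tumors the highest as groups, and these 2 groups did not overlap. The log2 difference was 1.06 (SE 0.18, adjusted p = 0.000934) for the combination against α-KG, under all 5 scalings. Against vehicle it was 0.58 (SE 0.18, adjusted p = 0.0174) for the combination and -0.48 (SE 0.18, adjusted p = 0.0904) for α-KG. The test of the difference of effects, that of anti-PD1 given with α-KG minus that of anti-PD1 given without it, gave 1.04 (SE 0.26, adjusted p = 0.0207) and held under all 5 scalings. That call was lost without anti-PD1 tumor 4, and the call against vehicle without vehicle tumor 3 or 4 or combination tumor 2.

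D2hgdh encodes the mitochondrial dehydrogenase that turns D-2-hydroxyglutarate into α-KG (gene ID 98314, chr1:93823195-93853857). It was at 6.79, 5.89, 5.29 and 5.48 FPKM in vehicle, 5.59, 6.84, 6.32 and 5.86 FPKM in anti-PD1, 5.4, 4.91, 4.21 and 4.61 FPKM in α-KG and 6.94, 9.23, 8.79 and 7.87 FPKM in combination tumors. Every combination tumor lay above all 12 others. The combination exceeded α-KG by a log2 difference of 0.67 (SE 0.10, adjusted p = 0.00053) and vehicle by 0.42 (SE 0.10, adjusted p = 0.00488), and the difference of effects was 0.61 (SE 0.15, adjusted p = 0.0189). The first and the last held under all 5 scalings and the difference from vehicle under 3. The other 2-hydroxyglutarate enzyme, Adhfe1, a transhydrogenase that produces D-2-hydroxyglutarate while forming succinic semialdehyde, had 14.2 ± 2.03 FPKM in vehicle and 17.4 ± 4.26 FPKM in combination tumors (SD, n = 4) and was not called.

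Bcat2, the mitochondrial branched-chain amino acid transaminase (gene ID 12036, chr7:45568967-45589710), was at 24.25 to 28.46 FPKM in the 8 vehicle and anti-PD1 tumors, 24.03 to 26.21 FPKM in α-KG tumors and 32.51, 34.41, 33.64 and 31.93 FPKM in combination tumors. Dlst (gene ID 78920, chr12:85110822-85134091) was at 86.86, 88.84, 96.59 and 95.3 FPKM in vehicle, 79.24, 89.64, 84.69 and 78.97 FPKM in anti-PD1, 82.96, 79.65, 69.49 and 81.36 FPKM in α-KG and 100.59, 94.35, 99.6 and 94.64 FPKM in combination tumors. Idh3b, a regulatory subunit of the NAD-dependent isocitrate dehydrogenase (gene ID 170718, chr2:130279309-130284451), was at 78.47, 71.55, 71.75 and 81.27 FPKM in combination tumors and at 48.17 to 71.3 FPKM in the other 12. For Bcat2 and Idh3b all 4 combination tumors lay above the other 12, and for Dlst above all 8 tumors given a single agent. The combination exceeded vehicle in Bcat2 by a log2 difference of 0.31 (SE 0.06, adjusted p = 0.00133), which was -0.0011 with tumors centered on their medians and called higher under the other scalings. Dlst was higher than with α-KG by 0.31 (SE 0.07, adjusted p = 0.003) and differed from vehicle by 0.08 (adjusted p = 0.332). Idh3b was called higher with the combination against vehicle (0.33, SE 0.10, adjusted p = 0.0106), under 4 of the 5 scalings, and its log2 difference was 0.02 (adjusted p = 0.862) with tumors centered on their medians. Idh3a, of the same enzyme complex, was called lower under 3 of the 5, and Idh3g had -0.19 and did not pass. The difference between subunits was not tested.

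**Figure D4:**
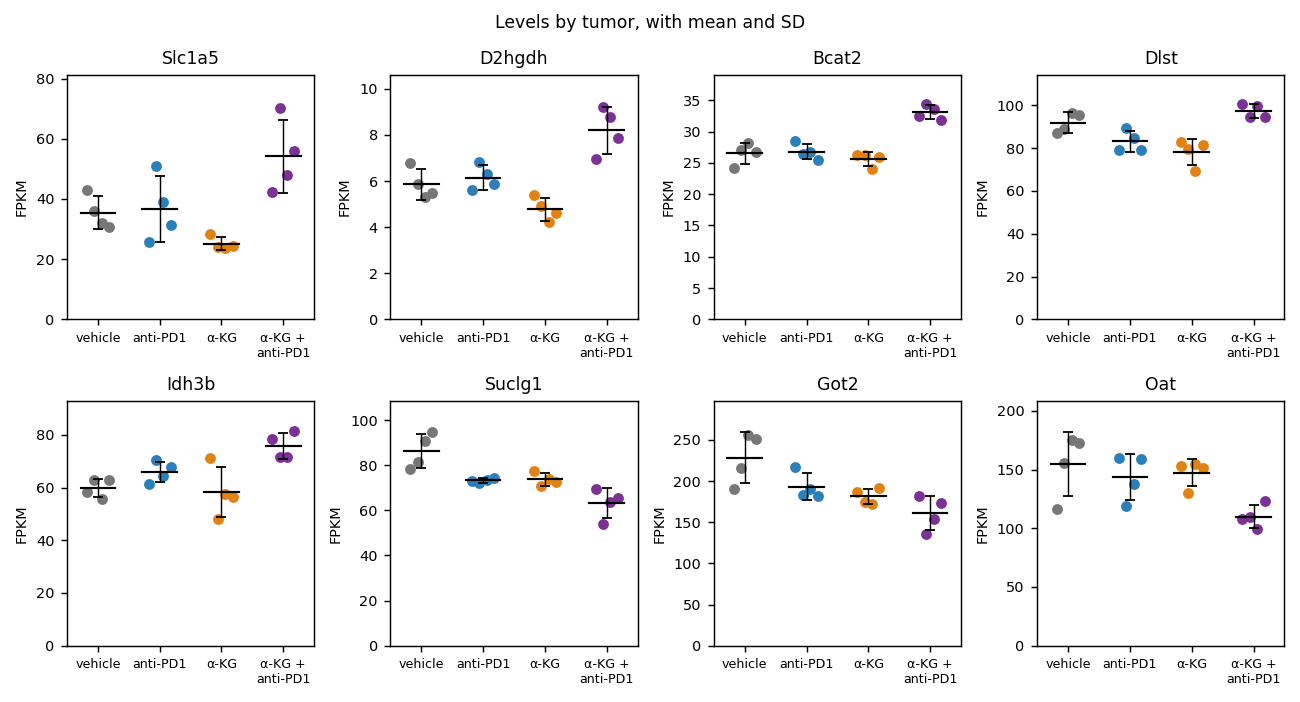
FPKM of 8 genes, 1 point per tumor, with the group mean and SD (bars, n = 4). Slc1a5, D2hgdh, Bcat2, Dlst and Idh3b have their highest group mean in the combination tumors, and Suclg1, Got2 and Oat their lowest.

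Set against α-KG alone, the combination gave 5 members called higher (Slc1a5, D2hgdh, Idh3b, Bcat2 and Dlst), against 31.8% of all genes tested, and 4 called lower (Acod1, Slc13a3, Oat and Suclg1), against 6.47% of all genes. Under all 5 scalings 3 were called, Acod1, Slc1a5 and D2hgdh, against 15.6% of all genes. The median log2 difference was 0.00 for the 41 and 0.16 over all genes. The split was 5 to 4 after quantile normalization, 2 to 14 with tumors centered on their medians, 13 to 1 with the same sum and 8 to 3 with the same sum without hemoglobin genes. Oat, ornithine aminotransferase, which passes an amino group from ornithine to α-KG (gene ID 18242, chr7:132557475-132576398), was at 116.14, 155.92, 175.04 and 172.33 FPKM in vehicle, 152.69, 130.18, 154.96 and 151.22 FPKM in α-KG and 107.91, 109.81, 98.99 and 123.18 FPKM in combination tumors. Its promoter holds a GAAANNGAA match 186 bases before the start. All combination tumors lay below all α-KG tumors, with a log2 difference of -0.42 (SE 0.13, adjusted p = 0.017) that held under 4 of the 5 scalings and was lost without α-KG tumor 3 or combination tumor 3. The Slc13a3 difference of -1.15 (SE 0.42, adjusted p = 0.0416) was lost without any of 8 single tumors, and that of Suclg1 (-0.23, adjusted p = 0.0312) without α-KG tumor 1 or 3 or combination tumor 2 or 3.

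Set against anti-PD1 alone, the combination gave 5 members called higher, against 14.2% of all genes tested, and 0 called lower by limma, against 1.31% of all genes. There were 12 members at an unadjusted p under 0.05, against 34.1% of all genes. The 5 were Bcat2 (0.30, SE 0.06, adjusted p = 0.0121), D2hgdh (0.36, adjusted p = 0.0344), Dlst (0.23, adjusted p = 0.0374), Acod1 (1.39, adjusted p = 0.0453) and Slc1a5 (0.56, adjusted p = 0.0481). None of them was called under all 5 scalings, against 5.07% of all genes. The split was 1 to 4 after quantile normalization, 0 to 11 with tumors centered on their medians, 7 to 0 with the same sum and 2 to 0 with the same sum without hemoglobin genes. Dlst had a log2 difference of -0.0080 with tumors centered on their medians. Leaving out anti-PD1 tumor 1 or 4 or combination tumor 3 left 1 call, and leaving out combination tumor 4 gave 8. The call of Slc1a5 was lost without any of 13 single tumors, that of Acod1 without any of 10, that of Dlst without any of 6, and that of D2hgdh without any of 4, while that of Bcat2 held without each of the 16. With only the 2 groups compared in the fit, 0 of the 41 and 0 of all 12850 genes were called, with Bcat2 at an adjusted p of 0.0571. The fit without the filter left 2 calls.

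The difference of effects was called higher for 4 members (Slc1a5, D2hgdh, Dlst and Bcat2), against 7.99% of all genes tested, and lower for 1 (Acod1), against 3.13% of all genes. Under all 5 scalings 3 were called, Acod1, Slc1a5 and D2hgdh, against 5.12% of all genes. For Acod1 it was -4.61 (SE 0.62, adjusted p = 0.000396). That is, Acod1 was higher in anti-PD1 tumors than in vehicle tumors by a log2 difference of 1.59, and lower in combination tumors than in α-KG tumors by 3.02. For Dlst the difference of effects was 0.45 (SE 0.10, adjusted p = 0.0087) and for Bcat2 0.35 (SE 0.09, adjusted p = 0.0223), held under 4 and 3 of the 5 scalings, and the Bcat2 call was lost without anti-PD1 tumor 4 or α-KG tumor 3. The split was 3 to 1 after quantile normalization, 2 to 1 with tumors centered on their medians, 7 to 1 with the same sum and 5 to 1 with the same sum without hemoglobin genes. The neutrophil markers had 7 of 8 genes called lower in the same test, and the muscle markers 8 of 8 called higher. Their part in these values was not tested.

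**Figure D5:**
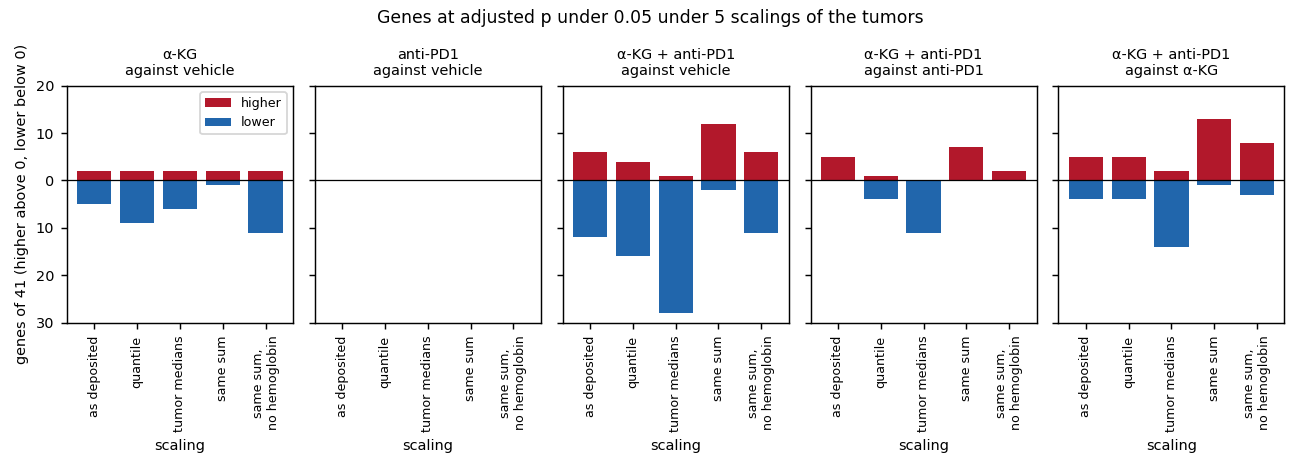
Number of the 41 genes called higher (above 0) and lower (below 0) at adjusted p under 0.05 in 5 comparisons, under 5 scalings of the tumors. For the combination against vehicle the calls go from 12 higher and 2 lower with the same sum to 1 higher and 28 lower with tumors centered on their medians, while anti-PD1 against vehicle has 0 calls under each.

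Of 49 further genes of the pathway, 46 were in the table and 44 passed the filter. With α-KG alone 1 of the 44 was called higher, against 8.4% of all genes tested, and 10 lower, against 7.53%. The lower calls were 4 to 15 under the other scalings. The higher one was Slc7a11, the cystine-glutamate exchanger (log2 difference 1.58, adjusted p = 0.00416). Among the lower were Slc25a1, the mitochondrial citrate carrier (-0.41, adjusted p = 0.00414), and Pdk3, a pyruvate dehydrogenase kinase (-0.34, adjusted p = 0.00893). Anti-PD1 alone gave 0 calls among the 44 by limma.

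With the combination against vehicle 5 of the 44 were called higher, against 34.9% of all genes tested, and 11 lower, against 10.5%. The split of higher to lower was 2 to 17 after quantile normalization, 1 to 24 with tumors centered on their medians, 10 to 2 with the same sum and 6 to 10 with the same sum without hemoglobin genes. Slc25a22, a mitochondrial glutamate carrier, stood at 4.82 to 7.11 FPKM in vehicle and 11.15 to 17.17 FPKM in combination tumors (log2 difference 1.17, SE 0.15, adjusted p = 0.000417). It was also higher than with α-KG (1.05, adjusted p = 0.000244) and with anti-PD1 (0.77, adjusted p = 0.01), in each case under all 5 scalings. Dbt, a subunit of the branched-chain ketoacid dehydrogenase complex, was called higher (0.45, adjusted p = 0.00471), and Pdk3 (-0.45, adjusted p = 0.000773) and lactate dehydrogenase Ldha (-0.49, adjusted p = 0.00125) lower. Against α-KG alone the combination had 8 of 44 called higher, against 31.8% of all genes, and 3 lower, against 6.47%, led by Bckdhb, another subunit of the branched-chain ketoacid dehydrogenase complex, at 0.76 (SE 0.10, adjusted p = 0.000223), followed by Hoga1, a mitochondrial aldolase of hydroxyproline breakdown (0.72, adjusted p = 0.00196), and Acss2, which makes acetyl-CoA from acetate (0.39, adjusted p = 0.00445). Against anti-PD1 alone it had 2 higher, against 14.2%, and 2 lower, against 1.31%. The difference of effects was called higher for 5, against 7.99%, and lower for 1, against 3.13%, with Bckdhb at 0.87 (SE 0.15, adjusted p = 0.00264) and Slc7a11 at -1.84 (SE 0.47, adjusted p = 0.023).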

How the data were processed

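Libraries were made from oligo-dT selected RNA with a dUTP second strand and run on a DNBSEQ instrument, per the labels. The authors deposited 1 table of FPKM values for 18929 genes and 16 tumors. The submitters' processing notes name HISAT, Bowtie2 and the build mm10, and the program that computed FPKM and the annotation are not given in the sources used here. Depth is unknown, so the precision of low values cannot be given.

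Tumors were grouped by their labels. The 12850 genes reaching 0.5 FPKM in 4 or more of the 16 tumors were tested on log2(FPKM + 1) with limma 3.58.1 in R 4.3.3, with 1 mean per group, all tumors in 1 fit and a mean-variance trend. The pseudocount of 1 understates the change of low genes. Benjamini-Hochberg adjustment ran over all these genes, separately for 5 comparisons and the difference of effects. The comparisons share groups. Alternatives were 4 other scalings, a pseudocount of 0.1, no filter, no trend, a replicate block, only the groups compared and leaving out each tumor. Coordinates and promoter windows are from RefSeq, GRCm38.p6, the same build as mm10, and gene IDs of all 41 members matched it.

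The members, roles, pathway genes and marker lists were chosen with earlier results of these data known. Values in every tumor are given for members called under all 5 scalings and for the member of each role with the largest log2 difference. Bcat2 and Idh3b were added after their values were seen, as were the genes named in counts of 5 or fewer. Of pathway genes, at most 4 per comparison with the smallest adjusted p are named. Strandedness of the counting is not given, so reads of overlapping antisense genes cannot be told apart.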

Additional observations from a re-analysis of the deposited data

Results flagged for a closer look

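Within groups of 4 tumors, 8 of 164 combinations of a gene and a group (4.88%) had a tumor whose gap to the nearest other exceeded Dixon's limit for the group's range, where chance gives about 1 in 20. In vehicle tumor 1, Idh1 was low at 32.25 FPKM, with the others at 38.31 to 39.54, and Slc13a3 was high at 0.68 FPKM, with the others at 0.15 to 0.21. In the anti-PD1 group, Sdhd was low in tumor 2 at 87.24 FPKM (others 97.62 to 99.7) and Mdh2 was high in tumor 1 at 364.9 FPKM (others 331.1 to 336.1). In the α-KG group, Sdhb was low in tumor 4 at 252.6 FPKM (others 282.8 to 288.6), Oat was low in tumor 2 at 130.2 FPKM (others 151.2 to 155), Bcat2 was low in tumor 3 at 24.03 FPKM (others 26.02 to 26.21) and Slc1a5 was high in tumor 1 at 28.26 FPKM (others 23.74 to 24.35).

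The effect of anti-PD1 differed with and without α-KG in 5 of 41 members by limma's test of the difference itself, where 7.99% of all genes tested were called higher and 3.13% lower, so the count is near that of all genes. On the log2 scale the effect with α-KG minus that without was -4.61 for Acod1 (adjusted p = 0.000396), 1.04 for Slc1a5 (adjusted p = 0.0207), 0.61 for D2hgdh (adjusted p = 0.0189), 0.45 for Dlst (adjusted p = 0.0087) and 0.35 for Bcat2 (adjusted p = 0.0223).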

How the results depend on the processing

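The number of the 41 genes called moved with the setting as follows, and the number over all genes tested often moved with it. For α-KG against vehicle, 7 as tested, it was 11 after quantile normalization, 3 with the same sum, 13 with the same sum without hemoglobin genes, 4 each without the trend, with the replicate block and with only the groups compared, and 3 to 16 on leaving out 1 tumor, with 16 without vehicle 1, 3 without vehicle 3 or 4, and 4 without α-KG 2 or 3. Over all genes these calls were 2048 as tested, 2621 without vehicle 1, 1256 without vehicle 3, 1657 with the block and 1734 with only the groups compared. For anti-PD1 against vehicle, 0 as tested, it was 1 with a pseudocount of 0.1 and 0 to 1 on leaving out 1 tumor (1 without vehicle 1). For the combination against vehicle, 18 as tested, it was 29 with tumors centered on their medians and 14 (without vehicle 4) to 25 (without vehicle 1) on leaving out 1 tumor, with 4265 and 6644 over all genes against 5827 as tested. For the combination against anti-PD1, 5 as tested, it was 11 with centered tumors, 2 with the same sum without hemoglobin genes, 3 with a pseudocount of 0.1, 2 without the filter, 3 without the trend, 1 with the replicate block, 0 with only the groups compared (also 0 of all 12850 genes) and 1 to 8 on leaving out 1 tumor. For the combination against α-KG, 9 as tested, it was 16 with centered tumors, 14 with the same sum and 6 to 10 on leaving out 1 tumor. For the difference of effects, 5 as tested, it was 3 with centered tumors, 8 with the same sum and 3 to 7 on leaving out 1 tumor. The cause was not tested. With tumors centered on their medians, 2 of the 44 called differences changed sign, Dlst against anti-PD1 (-0.0080) and Bcat2 against vehicle (-0.0011), both with the combination. Of the 44, the call was kept by 35 after quantile normalization, 27 with centered tumors, 27 with the same sum, 39 with the same sum without hemoglobin genes and 41 with a pseudocount of 0.1, with only the groups compared 26 kept it and 13 lost it, and over the refits without 1 tumor the call was kept 603 times and lost 101 times. The labels do not say that a replicate number ties tumors of different groups. Same-numbered tumors of different groups had correlations of -0.642 to 0.411, over 0.1 in 9 of 24 pairs. With 4 tumors per group these values cannot decide whether the numbers pair the tumors. The replicate block kept 36 of the 44 calls. Depth is unknown, which limits Acod1 and Slc13a3 in vehicle most.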
